A study of Mus musculus with 3 samples.

Results

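The stretch of mouse chromosome 13 from Ercc6l2 to Hsd17b3 is the far upstream end of the DNA along which contacts of the Ptch1 promoter were measured. It was chosen by position alone, as the 284 of 1001 deposited positions that fall between 63916548 and 64199984 on the mm9 build, 247 to 531 kb from the viewpoint. Contacts were measured by 4C-seq in 3 libraries of mouse embryos of day E11.5 (44 to 45 somites). One library came from the anterior part of the forelimb, one from the posterior part and one from the telencephalon, which was the control tissue. The limb parts were pooled from 20 embryos, and the labels name no strain, genotype or treatment. All 3 libraries shared fixation in 2% formaldehyde for 10 min, NlaIII as the first enzyme, DpnII as the second and the viewpoint in the Ptch1 promoter. Each tissue is 1 library of dissected, mixed cells, so the values below have no replicate check, no error and no p-value. No expression was measured, so tissue identity could not be set against marker genes.

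In 4C-seq, DNA that lay near a chosen fragment in the fixed nucleus is ligated to it, amplified outward from it and sequenced, so that the signal at a position reflects how often both lay close together. Ptch1 encodes the receptor that binds Hedgehog ligands, and GLI proteins in turn activate the gene when the pathway is on, and Sonic hedgehog is secreted from the posterior margin of the limb bud. Distal contacts of a promoter usually thin out with distance, and CTCF is a DNA-binding protein often found where such contacts concentrate.

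The stretch overlaps 3 annotated genes. Ercc6l2, which encodes a helicase-like protein with a link to DNA repair, is named 0610007P08Rik in the annotation (ENSMUSG00000021470.10) and lies on the plus strand at chr13:63916548-64001610, with 12 transcripts. Hsd17b3, which encodes the dehydrogenase that makes testosterone in the testis, lies on the minus strand at chr13:64159582-64190509 (ENSMUSG00000033122.7, 2 transcripts). Slc35d2, a nucleotide sugar transporter gene on the minus strand, enters only with the 2367 bp of its 3′ end that lie beyond 64197618, and its start is 561 kb from the viewpoint, outside the measured DNA. Of the 284 positions, 85 lie in Ercc6l2, 158 between Ercc6l2 and Hsd17b3, 31 in Hsd17b3 and 10 beyond the start of Hsd17b3.

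The viewpoint fragment and the upstream DNA of the genes at either end are shown first, since the assay can read only DNA next to an NlaIII site. Sequences are 5′ to 3′ from the mm9 genome, and capitals mark NlaIII sites (CATG) and DpnII sites (GATC). The first line is the last 60 bases of the viewpoint fragment, chr13:63669098-63669157 on the plus strand. The others are the 250 bases before the most upstream start of Ercc6l2, chr13:63916298-63916547 on the plus strand, and of Hsd17b3, chr13:64190510-64190759 on the minus strand.
Viewpoint fragment end: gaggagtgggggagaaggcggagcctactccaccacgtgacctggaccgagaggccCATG
Ercc6l2 upstream: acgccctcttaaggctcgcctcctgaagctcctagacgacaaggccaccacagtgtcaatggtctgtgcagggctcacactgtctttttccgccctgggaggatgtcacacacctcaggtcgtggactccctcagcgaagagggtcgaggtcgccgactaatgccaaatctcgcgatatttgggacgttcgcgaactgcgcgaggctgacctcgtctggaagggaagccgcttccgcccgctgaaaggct
Hsd17b3 upstream: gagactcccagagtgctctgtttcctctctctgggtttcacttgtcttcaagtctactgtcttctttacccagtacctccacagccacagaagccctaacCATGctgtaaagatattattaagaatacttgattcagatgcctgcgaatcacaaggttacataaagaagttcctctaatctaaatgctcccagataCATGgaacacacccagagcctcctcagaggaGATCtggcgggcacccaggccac

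The Ercc6l2 upstream sequence is GC-rich (59.6%), with 20 CpG dinucleotides and 0 NlaIII sites. The Hsd17b3 sequence has 47.2% GC, 2 CpG dinucleotides and 2 NlaIII sites.

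Values are the authors' normalised 4C signal, on a scale where the highest running median of the 6 kb windows is 1 in every library. A value of 1 is not the strongest contact at every width. For 5 kb windows the highest running median was 1.51 for posterior limb, 1.26 for telencephalon and 1.19 for anterior limb. For windows of several widths around each position the files give the running median of the signal with an upper and a lower quantile, and 5 kb windows are used unless said. Read depth is unknown. The last 3 positions have no value in 5 kb windows, which leaves 281. A position is called raised where a quantity reached at least 2 times the median of that same quantity in its own library, over all positions at least 10 kb from the viewpoint.

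By the running median of 5 kb windows, the Ptch1 promoter showed no raised contact anywhere from Ercc6l2 to Hsd17b3 in any library. Raised positions numbered 0 of 281 in each, against 2.36% (telencephalon), 1.02% (anterior limb) and 2.97% (posterior limb) of 976 positions of the series. These 976 have a value and lie at least 10 kb from the viewpoint. Whole-series shares of raised or 2-fold positions leave out nearer positions throughout. For telencephalon the mean running median was 0.0195 and the highest 0.0245. Anterior limb had 0.0262 and 0.0276, and posterior limb 0.026 and 0.0269. Most windows held a single repeated level: 0.0193 at 256 positions for telencephalon, 0.0264 at 257 for anterior limb and 0.0259 at 221 for posterior limb. With the next most common level these came to 96.1%, 98.9% and 97.5% of positions. The sources used here do not say whether these levels are measurements or fill-in values.

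The limb libraries lay above telencephalon in this mean, by 1.34-fold in anterior and 1.33-fold in posterior limb, but these ratios became 0.985 and 0.992 after each library was scaled to its own median. The limb parts had a ratio of 0.991, posterior over anterior. Single positions fell well below these levels, such as 63929984 in Ercc6l2, where posterior limb was at 0.000412, anterior limb at 0.0163 and telencephalon at 0.0193. In 2 kb windows, which follow narrower contacts, raised running medians appeared at 2 positions in telencephalon, both just inside Ercc6l2 (0.0495 and 0.0551), at 1 in anterior limb and at 4 in posterior limb. These shares of 0.707%, 0.353% and 1.41% stand beside 3.47%, 1.63% and 4.29% of the whole series at that width. The posterior ones included 0.135 at 64052984, 384 kb away between the genes, where telencephalon was at 0.0245 and anterior limb at 0.0276.

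The upper quantile, which follows the strongest fragments of a window, set the libraries apart. Posterior limb was raised at 50 of 281 positions, anterior limb at 16 and telencephalon at 7. These are 17.8%, 5.69% and 2.49% of the stretch, beside 17.6%, 12.4% and 11.7% of the 976 positions of the whole series. The posterior share here was close to its share of the whole series, and those of anterior limb and telencephalon were below theirs. Windows overlap, and a single cluster of fragments can raise up to 5 neighbouring positions, so these counts are not counts of separate contacts.

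The raised positions lay in few places. Posterior limb had 10 raised stretches (runs of at least 2 raised positions), anterior limb 3 and telencephalon 2, and of these 9, 3 and 1 were intergenic. All 16 positions raised in anterior limb were also raised in posterior limb, where they made up 32% of the raised positions. Of the 7 raised in telencephalon, posterior limb shared 6 (85.7%) and anterior limb 4 (57.1%). Posterior limb alone was raised at 32 positions, anterior limb alone at 0 and telencephalon alone at 1, and 4 positions were raised in all 3 libraries. Overlaps were counted in this stretch only. Without the same counts over the whole series, they do not show whether this sharing is particular to the stretch.

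Inside Ercc6l2, 5 kb windows were flat except at the start of the gene. Of 85 positions, the upper quantile was at its commonest level at 82 for telencephalon (0.0245), 78 for anterior limb (0.0276) and 82 for posterior limb (0.0269). Raised positions numbered 3, 0 and 2, and all of them lay at the start of the gene. The gene held 6, 5 and 7 raised positions in 2 kb windows, or 7.06%, 5.88% and 8.24%, below the 13.7%, 14.7% and 20.1% of the whole series at that width. Apart from the start, telencephalon then reached 0.149 at 63980984 and 63981984, anterior limb 0.08 at 63990984 and posterior limb 0.108 at 63979984, positions chosen after their values were seen.

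At 63916984, the position nearest the most upstream Ercc6l2 start, telencephalon had an upper quantile of 0.0903, anterior limb 0.0435 and posterior limb 0.121. One position on, at 63917984, it was 0.0903, 0.0435 and 0.111. Telencephalon and posterior limb were high here and anterior limb was the lowest. The raised run crossed the lower edge of the stretch: at 63915984, just outside it, the values were 0.0753, 0.0313 and 0.0652, and at 63914984 telencephalon alone was raised, at 0.0495. At 63919984 all 3 libraries were back at their commonest level. The windows of these raised positions held only 26 to 28 fragment ends with a unique sequence, against a median of 41 over the stretch.

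In 5 kb windows the start of Ercc6l2 was also the only place where telencephalon exceeded a limb library by 2-fold over a run of positions. Telencephalon was at least 2-fold above anterior limb at 3 positions (2.87% of all positions in the series were called in this direction), with means of 0.0848 and 0.0394, a fold of 2.15. The fold was 2.23 in 2 kb windows, 1.42 in 10 kb windows and 0.889 in 20 kb windows. Telencephalon was 2-fold above posterior limb at 1 position, against 1.43% in the series. In the same place posterior limb was above anterior limb at 2 positions, with means of 0.116 and 0.0435, a fold of 2.67 that was 0.974 in 10 kb windows.

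The DNA between Ercc6l2 and Hsd17b3, which is also most of the stretch, held most of the other raised positions. Of its 158 positions, 43 were raised in posterior limb (27.2%), 12 in anterior limb (7.59%) and 4 in telencephalon (2.53%). The whole-series shares were 17.6%, 12.4% and 11.7%, so only posterior limb was above its own. The mean upper quantile was 0.0468 in posterior limb, 0.0321 in anterior limb and 0.0255 in telencephalon. Posterior limb was thus 1.83-fold above telencephalon and 1.46-fold above anterior limb, and 1.67-fold and 1.5-fold after division by the own medians. The median window here had 42 unique fragment ends, and 5 of the 158 windows touched an exon.

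Inside Hsd17b3 no 5 kb window was raised. At all 31 positions the upper quantile stayed at 0.0245 (telencephalon), 0.0276 (anterior limb) and 0.0269 (posterior limb), and the running median likewise never left 0.0193, 0.0264 and 0.0259. This includes the start of the gene, 521 kb away. The windows were not poor in readable ends, with a median of 45 and at least 31. In 2 kb windows, however, telencephalon was raised at 1 of the 31 positions (0.0904 at 64182984). Posterior limb was raised at 2 (highest 0.0652, at the same position) and anterior limb at 0. These are low counts beside the whole-series shares at that width: 13.7% in telencephalon, 20.1% in posterior limb and 14.7% in anterior limb.

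**Figure D1:**
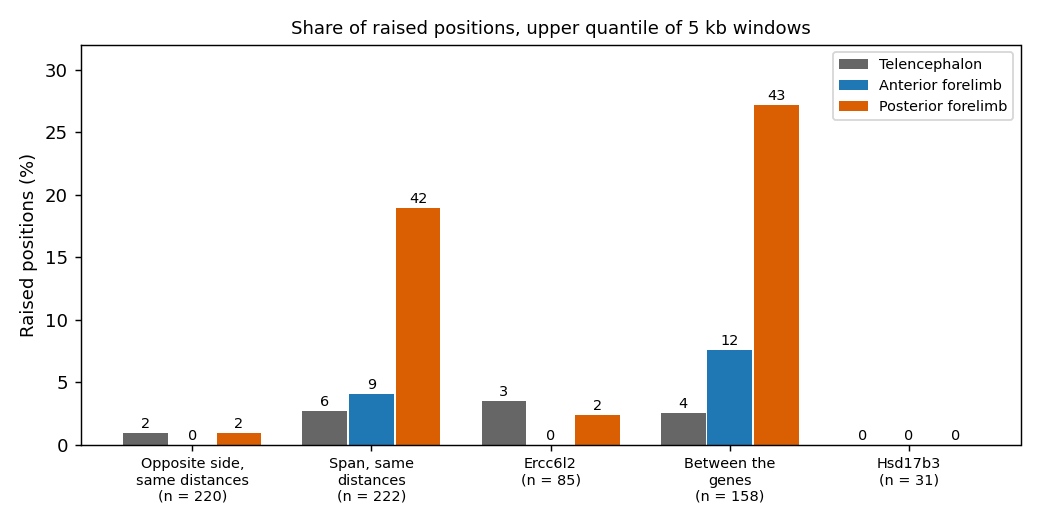
Share of positions whose upper quantile in 5 kb windows was raised (%), by library, with the number of raised positions above each bar and the number of positions with a value under each group; bars are single libraries and have no error. The 43 raised posterior positions between the genes stand out, Hsd17b3 has 0 in every library, and the opposite side of the viewpoint at the same distances has 2, 0 and 2.

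The strongest stretch lay between the genes at chr13:64100984-64105984, 432 to 437 kb from the viewpoint and 53.6 kb beyond the 3′ end of Hsd17b3. In posterior limb the upper quantile at its 6 positions was 0.0639, 0.096, 0.192, 0.191, 0.191 and 0.0616. Telencephalon stayed at 0.0245 and anterior limb at 0.0276 at all 6, which are their commonest levels. The mean of 0.133 was 5.41-fold above telencephalon and 4.81-fold above anterior limb. Each stretch named with a fold was chosen by the signal of its higher library. An excess of that library is therefore built into the fold, here and for the other stretches. In 2 kb windows the folds were 4.93 and 4.82, in 10 kb windows 2.49 and 2.21, and in 20 kb windows 1.3 and 1.15. The running median stayed at 0.0269 in posterior limb, the second most common of its repeated levels. The 2 kb running median was raised at 1 position, 64104984, at 0.0616.

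The second strongest stretch, chr13:64069984-64073984, was 401 to 405 kb away. The posterior upper quantile was 0.155 at the first 3 positions, then 0.0846 and 0.0789. Anterior limb ranged from 0.0276 to 0.0436 and telencephalon was at 0.0245 throughout. The mean of 0.126 was 5.13-fold above telencephalon and 3.58-fold above anterior limb. A posterior stretch at chr13:64050984-64054984, 382 to 386 kb away, peaked at 0.162 and was shared in part with anterior limb, which was raised at 3 of the 5 positions and peaked at 0.0779. Its mean was 4.22-fold above telencephalon, while its last 3 positions were 2.26-fold above anterior limb. In 2, 10 and 20 kb windows the fold over telencephalon was 3.65, 2.42 and 1.41. The fold over anterior limb was 1.27, 1.72 and 1.25, below 2 at each of these widths.

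Between 409 and 423 kb the mean posterior signal was lower. At chr13:64077984-64079984 the posterior mean was 0.0973, with anterior limb at 0.04 and telencephalon at 0.0245. At chr13:64085984-64091984 all 7 positions lay between 0.0618 and 0.0669 in posterior limb, while telencephalon stayed at 0.0245 and anterior limb left 0.0276 only at the first position (0.0556). This low plateau was raised at 38 of the 48 widths, the most of the posterior stretches. A width counted where any position of the stretch was raised, and wide windows also take in neighbouring stretches. In 20 kb windows posterior limb was still 2-fold above telencephalon here. At that width it was 2.65-fold above at chr13:64077984-64079984 and 2.03-fold at chr13:64135984-64137984. Weaker posterior stretches at chr13:64119984-64123984 and chr13:64016984-64017984 had means of 0.0685 and 0.0577, 2.8-fold and 2.35-fold above telencephalon. For the first the fold was 3.19 in 2 kb windows, 1.84 in 10 kb windows and 1.1 in 20 kb windows. For the second it was 1.1, 1.86 and 1.1, so its excess was nearly absent in 2 and 20 kb windows.

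**Figure D2:**
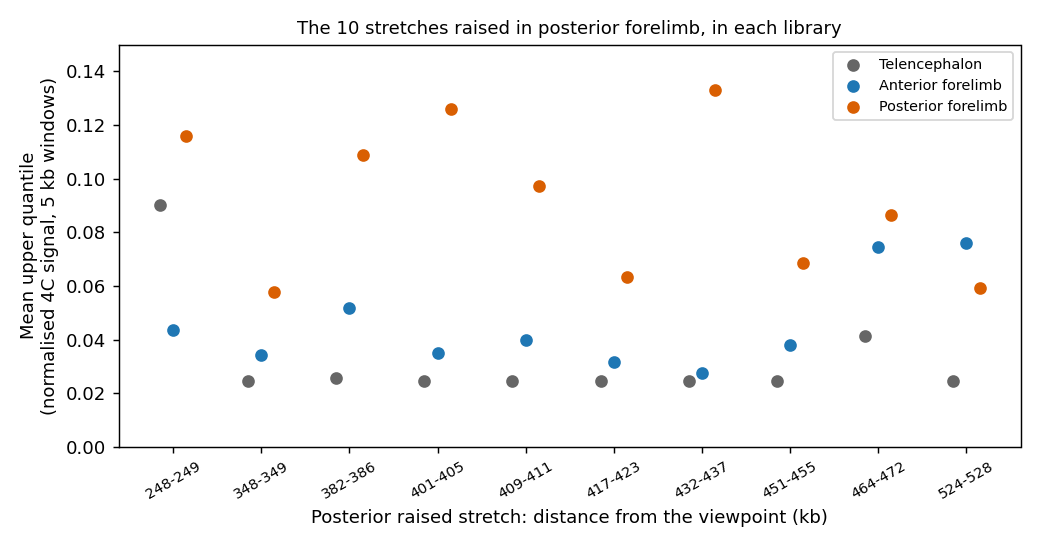
Mean upper quantile in 5 kb windows (normalised 4C signal) over each of the 10 stretches raised in posterior forelimb, labelled by distance from the viewpoint, in the 3 libraries (1 point per library, no error). Since posterior limb chose the stretches, its height and its excess over the other libraries are not findings. Telencephalon sits at about 0.0245 in all but the stretches at 248-249, 382-386 and 464-472 kb. Anterior limb exceeds posterior limb in the last stretch.

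In 1 place between the genes all 3 libraries were raised. It is chr13:64135984-64138984, 467 to 470 kb from the viewpoint, inside a posterior stretch of 9 positions that runs from 64132984 to 64140984 and ends 18.6 kb beyond the 3′ end of Hsd17b3. At 64136984 posterior limb had an upper quantile of 0.129, anterior limb 0.121 and telencephalon 0.0492. Over the 4 positions the means were 0.0492, 0.109 and 0.112. The limb parts were nearly level and telencephalon was lower, at 2.01 times its own median and so just past the threshold. Anterior limb was 2.47-fold above telencephalon over the last 3 of these positions and posterior limb 2.41-fold over the first 3. In both sets telencephalon was away from its commonest level. These folds were 1.49 and 2.89 in 2 kb windows. As the positions differ, the folds do not compare the limb parts.

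A further stretch lay beyond the Hsd17b3 start, between it and the 3′ end of Slc35d2, at chr13:64192984-64196984, 524 to 528 kb away. It was raised at all 5 positions in posterior limb (0.0572 to 0.0629) and at 4 in anterior limb (highest 0.120 at 64194984), and telencephalon was at 0.0245 throughout. Anterior limb was higher than posterior limb here, with means of 0.0761 and 0.0592. It reaches the end of the deposited DNA, so its extent is not known. Over its 4 positions the anterior excess over telencephalon was 3.43-fold, the highest of the 3 anterior stretches, and in 10 kb windows it was 1.45-fold.

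Counted over all positions, posterior limb was at least 2-fold above telencephalon at 44 of 281 positions (15.7%), against 9.12% of the 976 positions of the series. It was 2-fold above anterior limb at 33 (11.7%, against 8.91%). Anterior limb was 2-fold above telencephalon at 14 (4.98%, against 5.02%) and above posterior limb at 0, against 1.74%. In 2 kb windows anterior limb was 2-fold above posterior limb at 3 positions (1.06%, against 3.68% of the series). At 40 of the 44 positions of posterior limb over telencephalon, telencephalon was at its commonest level, so these folds are relative to that level. The whole-series shares include the stretch itself. Outside it, posterior limb was 2-fold above telencephalon at 6.47% of positions and above anterior limb at 7.77%. Anterior limb was 2-fold above telencephalon there at 5.04% and above posterior limb at 2.45%. All these outside shares take in positions nearer the viewpoint, from 10 kb on. With 1 library per tissue the differences between shares were not tested.

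On the opposite side of the viewpoint, at the distances that both sides cover (248 to 469 kb), 2, 0 and 2 of 220 positions were raised in telencephalon, anterior and posterior limb, against 6, 9 and 42 of 222 upstream. The mean posterior upper quantile was 0.0268 there and 0.0413 upstream, and the windows there held a median of 46 unique ends, with 4 positions at 0 in each library. Nearer the viewpoint on the upstream side, from 100 kb to the start of Ercc6l2, the raised shares were 3.4%, 4.08% and 16.3%, close to the 2.49%, 5.69% and 17.8% found from Ercc6l2 onward. Posterior limb had the highest share on both sides of the Ercc6l2 start. These shares are descriptions of 1 library each and were not tested.

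Raised counts were lower in 10 and 20 kb windows than in 2 and 5 kb windows, though not at every step of width. Telencephalon had its last raised position in 10 kb windows, anterior limb in 20 kb windows and posterior limb in 44 kb windows. In 2 kb windows 14, 29 and 58 positions were raised in telencephalon, anterior and posterior limb (4.95%, 10.2% and 20.5%), so the posterior share was near the 20.1% of the whole series and the others were below theirs. In 10 kb windows 2, 9 and 42 were raised (0.717%, 3.23% and 15.1%, against 10.9%, 10.6% and 17.4% of the series). In 20 kb windows 0, 1 and 18 were raised (0%, 0.365% and 6.57%, against 10.4%, 8.64% and 14.6%). Posterior limb had the most and telencephalon the fewest at each of these widths.

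**Figure D3:**
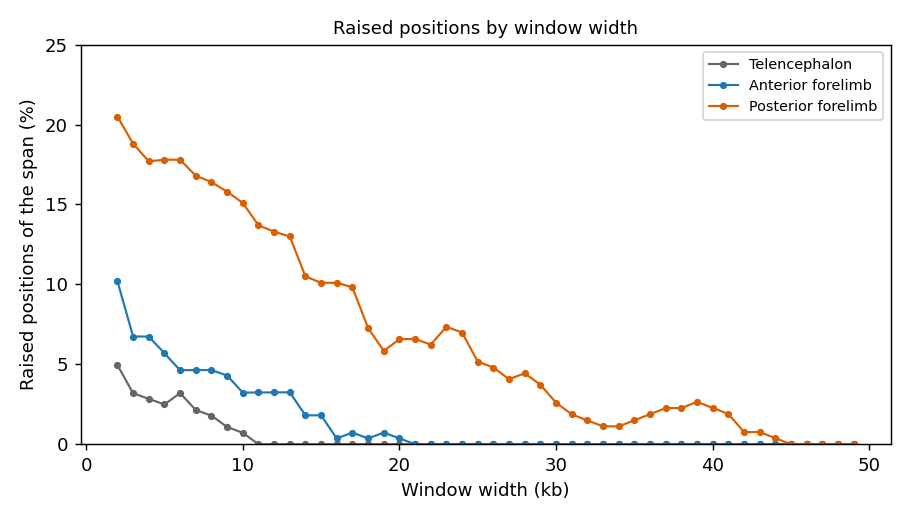
Share of positions from Ercc6l2 to Hsd17b3 with a raised upper quantile (%) against window width (2 to 49 kb), 1 line per library. Posterior forelimb starts at 20.5% and is last above 0 in 44 kb windows, whereas anterior forelimb and telencephalon start at 10.2% and 4.95% and are last above 0 in 20 kb and 10 kb windows.

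The lower quantile, the low side of each window, showed a different order of places. Its mean over the stretch was highest in posterior limb (0.00893), then anterior limb (0.00742), then telencephalon (0.0051). In Hsd17b3, where the upper quantile was flat, the posterior lower quantile equalled the running median level of 0.0259 at 16 of 31 positions, with a mean of 0.0145 against 0.00834 in anterior limb and 0.00778 in telencephalon. In Ercc6l2 anterior limb had the highest mean (0.00646), with posterior limb at 0.00518 and telencephalon at 0.00501. The ratio of posterior over anterior limb there was 0.802 as deposited but 2.57 after scaling to the own medians, which turns the order. Over the whole stretch posterior over telencephalon was 1.75 as deposited and 5.43 scaled. The scaling divides by very low own medians: 0.000412 in posterior limb, 0.00132 in anterior limb and 0.00128 in telencephalon. On the opposite side, at matched distances, posterior over telencephalon was likewise 1.39 as deposited and 4.32 scaled. The scaled ratios are thus not particular to this stretch.

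Raised windows did not hold more readable ends than others. The 51 windows raised in any library had a median of 38 unique fragment ends and 45.2% GC, and the 230 raised in none had 42 and 43%. Exon sequence was touched by 11.8% of the raised windows and 41.7% of the others. Raised windows never had under 20 unique ends, whereas 5 windows of the stretch did, all in Ercc6l2.

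Recognition sequences of GLI and CTCF proteins were searched as fixed letters on both strands. The GLI consensus GACCACCCA occurred 5 times in this stretch and 17 times in all the deposited DNA. It was held by 7.34% of all 5 kb windows and by 9.51% of the windows here. Of the windows raised in posterior limb, 12 of 50 (24%) held it, and these share the 3 matches below, while 0 of 16 anterior and 0 of 7 telencephalon raised windows did. The matches at chr13:64002808-64002816 and chr13:64028949-64028957 lay in no raised window of any library. Of the 27 windows of the stretch that held a match, 12 were raised in any library. Overlapping windows are not independent, and a match is a description of letters, not a binding site. The 3 matches in raised windows are shown in capitals with 26 bases on either side, in plus-strand coordinates. The first is chr13:64089817-64089877 in the low plateau, the next chr13:64104593-64104653 in the strongest stretch, where an NlaIII site follows the match directly, and the last chr13:64132619-64132679 at the near end of the posterior stretch at 464 to 472 kb, where only posterior limb was raised.
GLI match, low plateau: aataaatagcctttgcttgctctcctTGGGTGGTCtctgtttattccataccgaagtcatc
GLI match, strongest stretch: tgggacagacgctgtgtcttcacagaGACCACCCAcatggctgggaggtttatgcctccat
GLI match, near end of the 464 to 472 kb stretch: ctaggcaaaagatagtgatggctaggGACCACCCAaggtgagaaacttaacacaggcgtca

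The CTCF core, searched as CCAGNNGGC, is far more common: 42 matches lay in the stretch, and 48.7% of all windows and 45.4% of the windows here held 1 or more. Of the raised windows, 25 of 50 in posterior limb (50%), 10 of 16 in anterior limb (62.5%) and 7 of 7 in telencephalon held one. The 7 telencephalon windows form only 2 runs of neighbouring positions, and overlapping windows can share a match. No GLI match in the stretch overlapped a CTCF core match. Between the first and last of the 4 positions raised in all 3 libraries there were 3 matches, all reading as the core on the minus strand, at chr13:64136847-64136907, chr13:64137811-64137871 and chr13:64138816-64138876.
CTCF core match 1: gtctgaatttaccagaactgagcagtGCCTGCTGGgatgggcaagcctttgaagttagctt
CTCF core match 2: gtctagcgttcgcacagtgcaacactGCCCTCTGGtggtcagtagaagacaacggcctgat
CTCF core match 3: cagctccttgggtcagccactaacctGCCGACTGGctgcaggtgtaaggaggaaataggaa

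Windows are coarser than fragments. In the second strongest stretch the 2 kb upper quantile peaked at 64071984, at 0.222 in posterior limb, while anterior limb was at 0.0779 and telencephalon at 0.0245, and the NlaIII fragment over that position is chr13:64071960-64072063. It has 38.5% GC and no DpnII site, and is shown with its NlaIII sites in capitals as an example of the DNA under a summit. The deposited values do not show which fragment of the window carried the signal.
NlaIII fragment under the summit: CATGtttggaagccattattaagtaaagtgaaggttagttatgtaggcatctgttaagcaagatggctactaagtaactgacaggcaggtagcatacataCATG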

How the data were processed

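Per the labels, 4C-seq was run on 3 libraries, 1 per tissue. The authors deposited a normalised 4C signal on mm9 (per the submitters' processing notes) at 1001 positions 1 kb apart, in 48 window widths of 2 to 49 kb with 3 quantities each. The sources used here name no aligner, filter, normalisation factor, quantile level or read total. Width was read from the empty ends and the quantities from their order (0 violations). Positions were taken as window centres. Signals were compared as deposited, with Python 3.11.15, numpy 2.4.6 and pandas 2.3.3. Positions under 10 kb from the viewpoint were left out. Raised means at least 2 times the own median. A 2-fold call needed the higher library raised and both values above 0. Stretches are runs of at least 2 positions. Calling was tested on simulated profiles. Genes are from GENCODE M1, with 0610007P08Rik renamed through RefSeq synonyms. Fragment ends counted as unique where their first 30 bases occur once in 211 reference sequences. The viewpoint interval began and ended on NlaIII sites, as a check of the build. Named were overlapping genes, the 5 highest raised stretches per library and the 3 highest stretches per direction; other positions and stretches, and the match examples, were chosen after their values were seen. The region and rules were chosen with earlier results of these data known.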

Additional observations from a re-analysis of the deposited data

How the results depend on the processing

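No paired analysis was possible because there was 1 library per tissue, and no replicate could be left out. Alternatives were 2, 10 and 20 kb windows, thresholds of 1.5 and 3, division by the own median, the running median or upper quantile column, full windows and windows with at least 20 unique ends. Of 81 values, 47 stayed within 1.5 times of the main value and 34 moved further. All ratios of means over the stretch stayed within it, but those of either limb part over telencephalon crossed 1 under division by the own median (0.985 and 0.992), and posterior over anterior limb (main 0.991) crossed it in 2 kb windows (1.06), under that division (1.01) and in the upper quantile column (1.26). Raised positions (main 7 in telencephalon, 16 in anterior and 50 in posterior limb) moved to 14 and 29 in 2 kb windows for the first 2 libraries, to 2 and 9 in 10 kb windows, and to 0, 1 and 18 in 20 kb windows; at 3 times the own median they were 3, 5 and 20, and in the running median column 0 in each. Positions of posterior limb at least 2-fold above telencephalon (main 44) moved to 18 in 20 kb windows, 15 at a fold of 3 and 0 in the running median column, and those above anterior limb (main 33) to 15, 9 and 0. Anterior limb above telencephalon (main 14) moved to 4 in 10 kb windows, 1 in 20 kb windows, 3 at a fold of 3 and 0 in the running median column, and above posterior limb (main 0) to 3 in 2 kb windows. Telencephalon above anterior limb (main 3) moved to 6 in 2 kb windows and above posterior limb (main 1) to 2, and both to 0 in 10 and 20 kb windows, at a fold of 3 and in the running median column. The running median stays on its repeated levels here; the cause of the other moves was not tested. Depth is unknown and limits all counts.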

Other observations

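The 5 kb running median dropped below its commonest level 7 times over the 3 libraries, each time at a single position, named here after their values were seen. At 64058984, between the genes, all 3 libraries dropped, posterior limb to 0.0198, anterior limb to 0.00132 and telencephalon to 0.00128, in a window with 36 unique fragment ends. At 63929984, in an intron of Ercc6l2, it dropped to 0.0163 in anterior limb and 0.000412 in posterior limb but not in telencephalon, in a window with 15 unique ends. Telencephalon dropped to 0.00128 at 64074984 and anterior limb to 0.00132 at 64077984, where the other libraries stayed at their commonest levels. The anterior drop at 64077984 is the first position of a stretch raised in posterior limb.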
